A study of Mus musculus with 15 samples.

Results

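The comparison of a high-fat diet with chow after 3 days took in 10 of the 15 liver libraries of the study: the 5 from mice fed the high-fat diet and the 5 from mice fed chow, chosen by the diet named in the sample labels. The other 5 libraries came from mice on a ketogenic diet for 3 days and were used for the shared estimate of spread and for a direct contrast with the high-fat diet. All mice were of the inbred C57BL/6 strain, and total RNA was taken from liver with Trizol. Mice were 12 weeks old when they received the high-fat or ketogenic diet. The sources used here give neither the age of the chow group, nor the sex of any mouse, nor what the diets contained, so age and diet cannot be told apart from these labels. The labels do not say whether each library is a separate mouse, and p-values then measure only the spread between these samples. High-fat libraries carry the label numbers 9, 10, 11, 12 and 14 and chow libraries the numbers 15 to 19, and values below are listed in that order.

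The liver turns surplus dietary sugar into fatty acid through citrate cleavage, carboxylation of acetyl-CoA, fatty acid synthase and a desaturase, with NADPH supplied by malic enzyme and the pentose phosphate pathway. Insulin acting through SREBP-1c and glucose acting through ChREBP raise transcription of these enzymes, whereas fatty acids arriving from the diet are ligands of PPARα, which drives genes of fatty acid oxidation. Hepatocytes also break down amino acids and dispose of their nitrogen as urea, clear foreign compounds with cytochromes P450 and conjugating enzymes, and secrete most plasma proteins.

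Each of the 10 libraries held 30121672 to 44764257 estimated counts, and 13295 to 14044 genes reached 10 reads in each of the 10 libraries. The labelled tissue was checked against hepatocyte markers, and albumin alone took 5.22 to 5.40% of reads on the high-fat diet and 5.37 to 6.80% on chow. The sum of 10 skeletal muscle markers was 0.288 to 1.30 CPM in 9 of the libraries and 9.42 CPM in chow library 16. CPM is a gene’s read count scaled to a common library size after normalisation for library composition. The first principal component carried 27.4% of the variance and placed the high-fat libraries at 8.48 to 16.1 and the chow libraries at -17.2 to -10.3. One technical property moved with diet. With genes divided into 10 equal bins by transcript length, the shortest bin, up to 1164.5 bases, held 34 higher and 214 lower genes on the high-fat diet, and the longest held 248 higher and 40 lower. The gap in log2 level between the longest and shortest bin was taken against the mean of the chow libraries, so chow values lie around 0 by construction. The gap was 0.0097, 0.12, 0.20, 0.37 and 0.38 in the high-fat libraries and ran from -0.15 to 0.095 in chow. It was widest in high-fat libraries 12 and 14. Its part in the results was not tested. Counts of called genes are also given with the length trend of each library removed, and without libraries 12 and 14, for the lists they changed most. Of 151 named genes that passed, 105 also passed without any one library, and those that did not are named in each paragraph.

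Of 13967 genes tested, 1159 were higher on the high-fat diet, 8.3% of those tested, and 1023 were lower, 7.32%, at a Benjamini-Hochberg adjusted p under 0.05 in edgeR's quasi-likelihood test. Every count of list members below is to be read beside those shares. Most changes were small. The median size among called genes was 0.37 on the log2 scale, and 59 genes rose and 98 fell by at least 2-fold, which is 0.422% and 0.702% of those tested. In 1440 genes, 10.3%, the high-fat and chow libraries did not overlap. Genes named as the largest rises and falls, among them Csad, G6pdx, Gstm3, Ugt1a9, Saa4, Fkbp5 and Chrna4, were chosen partly for lacking overlap. In those genes it adds no support. The median log2 fold change over all genes was 0.01. Leaving out high-fat libraries 12 and 14 reduced the calls to 549 higher and 510 lower, of which 500 and 460 were also called with all libraries. Removing the length trend gave 876 higher and 974 lower, and leaving out chow library 15 gave 681 lower. On log2(TPM + 1) values limma called 119 higher and 351 lower, so that 25.3% of its calls were higher, beside 53.1% of the calls from counts.

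**Figure D1:**
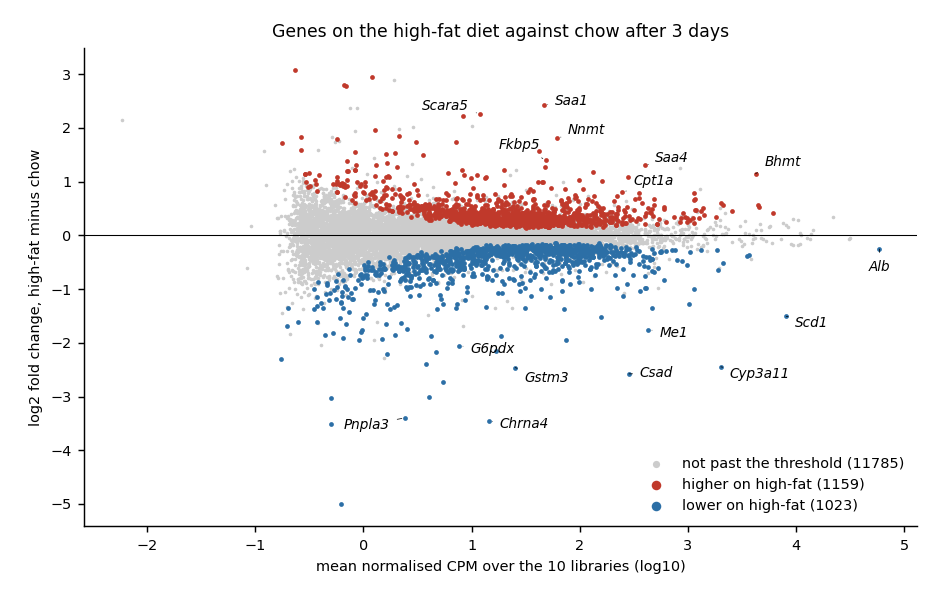
Log2 fold change of each of 13967 genes, high-fat minus chow, against its mean level, with genes at an adjusted p under 0.05 coloured. The 1159 higher and 1023 lower genes lie mostly within 2-fold of no change, and the named genes are the ones described in the text.

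Enzymes that make fatty acids were lower after 3 days of high-fat feeding. In the list of fatty acid synthesis and NADPH supply, 13 of 19 genes fell and 1 rose, beside 7.32% lower and 8.3% higher among all genes, and the median log2 fold change was -0.78. Malic enzyme Me1, a cytosolic source of NADPH on chromosome 9 (chr9:86581371-86695953, minus strand, GRCm38), stood at 234, 169, 156, 230 and 193 CPM on the high-fat diet and at 828, 470, 536, 888 and 598 CPM on chow. Every high-fat library lay below every chow library, and Me1 fell by 1.76 ± 0.17 (SE) on the log2 scale, with an adjusted p of 2.23e-05 from edgeR. G6pdx, which opens the pentose phosphate pathway, was at 3.496, 2.97, 3.07, 3.14 and 2.21 CPM against 15.8, 10.0, 8.46, 20.9 and 6.89 CPM. It fell by 2.06 ± 0.28 with no overlap (adjusted p 0.000324 from edgeR). Acly, which cleaves citrate to cytosolic acetyl-CoA, was at 380, 293, 234, 222 and 188 CPM against 775, 622, 608, 969 and 395 CPM, a fall of 1.36 ± 0.23 (adjusted p 0.00219 from edgeR). High-fat library 9, the highest of its group, lay just below chow library 19.

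The falls were not equal along the pathway. Acss2, which activates acetate, fell by 1.14, Acacb by 1.0, Elovl6, which lengthens palmitate, by 0.92 and Pgd, the next NADPH-producing step after G6pdx, by 0.78. Fasn, the synthase itself, was at 296, 335, 231, 240 and 289 CPM against 610, 370, 422, 1007 and 319 CPM, and its groups overlapped. Its fall of 0.97 ± 0.29 passed narrowly, at an adjusted p of 0.0379 from edgeR, and so did that of Acaca, the cytosolic acetyl-CoA carboxylase, which fell by 0.50 (adjusted p 0.0325 from edgeR). Chow library 18 held the highest value of G6pdx, Acly, Me1 and Fasn among the 5 chow libraries. The list also holds Pmvk, an enzyme of cholesterol synthesis that fell by 0.999, and Tkfc, which acts in fructose use and fell by 0.63. Oxsm, of the separate mitochondrial pathway, rose by 0.21. Genes of this list took 0.244% ± 0.0216 (SD, n = 5) of reads on the high-fat diet and 0.429% ± 0.112 (SD, n = 5) on chow, with an exact two-sided permutation p of 0.00794, the smallest that 5 libraries against 5 allow, and an adjusted p of 0.0159 over 6 read shares. The count of falls in fatty acid synthesis and NADPH supply dropped to 8 without any one of high-fat libraries 11 and 14 or chow libraries 15 and 18, and to 7 without high-fat libraries 12 and 14 together. Acacb was not past the test without any one of 5 libraries, Fasn, Acaca and Elovl6 without any one of 6, and Oxsm without chow library 16 or 19.

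**Figure D2:**
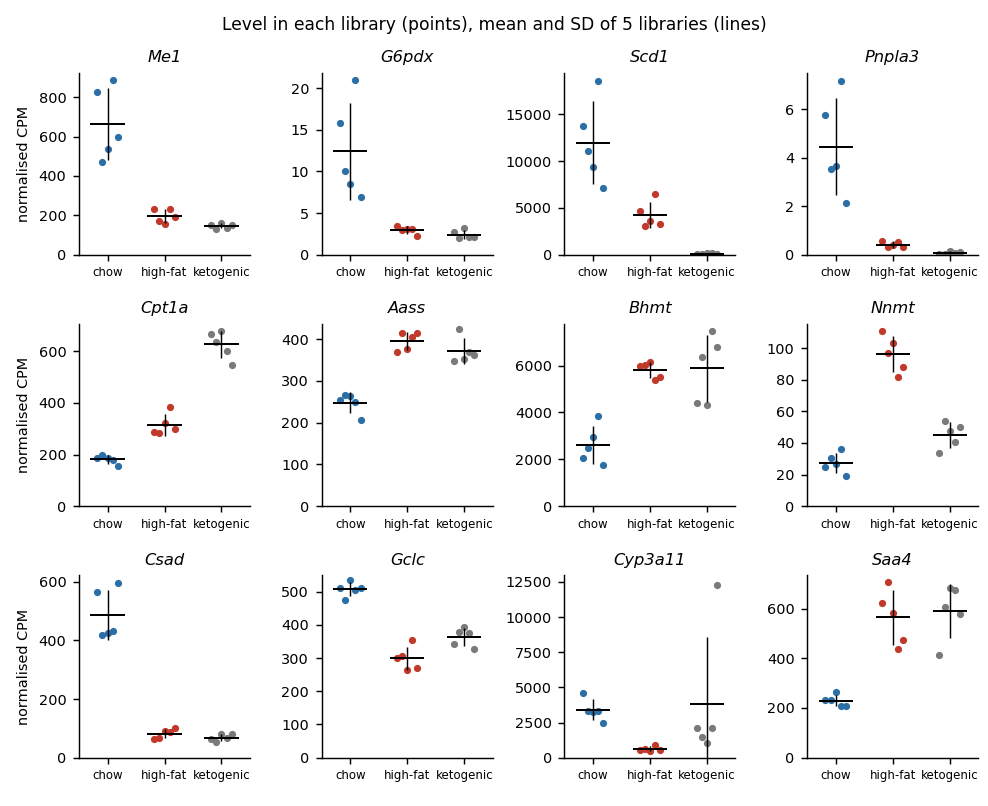
Normalised CPM of 12 genes in each library of the 3 diets, each panel on its own axis, with the mean and SD of 5 libraries. Me1, G6pdx, Scd1, Pnpla3, Csad, Gclc and Cyp3a11 show high-fat libraries wholly below chow, and Cpt1a, Aass, Bhmt, Nnmt and Saa4 show them wholly above.

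Genes of desaturation and lipid storage moved in both directions. Scd1, the desaturase that makes oleate, was at 4665, 3040, 3612, 6448 and 3318 CPM on the high-fat diet and at 13810, 11050, 9359, 18550 and 7157 CPM on chow. It fell by 1.51 ± 0.37 without overlap (adjusted p 0.0153 from edgeR). Fads2, which desaturates polyunsaturated fatty acids, rose by 0.68 (adjusted p 0.0196 from edgeR), not past the test without high-fat library 12, so that the list of desaturases and elongases held 6 falls and 1 rise among 16 genes. Without high-fat libraries 12 and 14 it held 1 fall. Pnpla3, a lipid droplet protein whose gene is a SREBP-1c target, was at 0.569, 0.3003, 0.393, 0.545 and 0.303 CPM against 5.78, 3.55, 3.67, 7.16 and 2.15 CPM. That fall of 3.40 ± 0.31 (adjusted p 6.06e-06 from edgeR) left every high-fat library below 1 CPM. Lpl, a lipase that cleaves plasma triglyceride, fell by 0.91, whereas the droplet coat gene Plin2 (-0.31, adjusted p 0.147 from edgeR) and Cidec (1.104, adjusted p 0.0985 from edgeR) did not pass. Fabp5, a fatty acid carrier, fell by 1.87, and the fatty acid receptor Cd36 (0.01, adjusted p 0.988 from edgeR) did not pass.

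Regulators of the pathway moved in both directions. Among 25 lipogenic regulators 7 rose and 4 fell, beside 8.3% higher and 7.32% lower among all genes. Ppara was at 83.8, 73.2, 70.7, 108 and 78.4 CPM on the high-fat diet and at 52.3, 54.7, 61.6, 42.6 and 49.4 CPM on chow, a rise of 0.67 ± 0.12 (adjusted p 0.0015 from edgeR) with no overlap. Ppard fell by 1.08, Pparg by 0.76, Insig1, which retains SREBP in the endoplasmic reticulum, by 0.57 and Mlxipl, which encodes ChREBP, by 0.36. Insig2 rose by 0.53. Pparg was not past the test without high-fat library 12 or chow library 15, Insig1 without any one of 6 libraries and Mlxipl without any one of 7. Srebf1, which encodes SREBP-1c, did not pass (-0.32, adjusted p 0.259 from edgeR). Rises among lipogenic regulators numbered 4 without high-fat library 10 or chow library 15, 17 or 19 and 3 without high-fat library 11. Falls numbered 2 without high-fat library 11, 12 or 14 or chow library 15 or 18, and 2 without high-fat libraries 12 and 14 together.

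Some enzymes of cholesterol synthesis were lower. Sc5d, Pmvk, Acat2, Fdps and Lss fell among 20 genes, by 0.84, 0.999, 0.77, 0.91 and 0.84, and the median of the list was -0.47. Squalene epoxidase Sqle (-0.44, adjusted p 0.33 from edgeR) and the apolipoprotein Apoa4 (0.20, adjusted p 0.742 from edgeR) did not pass. Cyp7a1, the rate-limiting enzyme of bile acid synthesis, was at 73.1, 107, 133, 89.3 and 113 CPM against 162, 165, 170, 248.7 and 120 CPM and fell by 0.75 (adjusted p 0.0197 from edgeR), with 1 high-fat library above the lowest chow library. It was not past the test without high-fat library 12, nor was Lss without any one of 5 libraries. Cholesterol synthesis held 10 falls without high-fat library 9 and 3 without libraries 12 and 14.

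**Figure D3:**
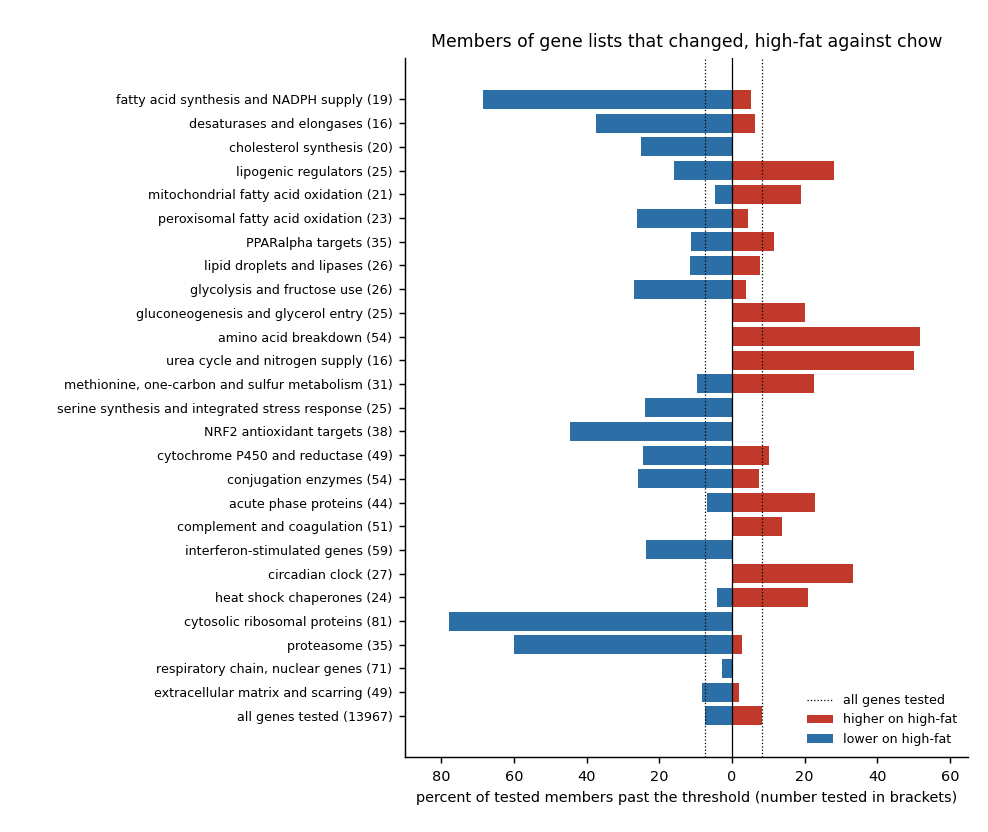
Members of each gene list past the test, higher to the right and lower to the left, as a percent of the members tested, beside the same for all 13967 genes. Fatty acid synthesis, NRF2 targets, proteasome and cytosolic ribosomal proteins lean to lower, and amino acid breakdown, the urea cycle and the circadian clock to higher.

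In fatty acid oxidation the entry enzyme Cpt1a and the acyl-CoA dehydrogenase gene Acad12 rose without overlap between diets. Cpt1a, which makes the acylcarnitines that enter mitochondria, was at 286, 282, 321, 385 and 299 CPM on the high-fat diet and at 185, 199, 186, 178 and 156 CPM on chow. It rose by 0.80 ± 0.09 with no overlap (adjusted p 2.49e-05 from edgeR). Acad12, at 9.69, 10.6, 10.8, 10.8 and 8.87 CPM against 6.78, 6.60, 6.59, 6.75 and 4.84 CPM, rose by 0.68 (adjusted p 7.23e-05 from edgeR). In the list of mitochondrial fatty acid oxidation, Cpt1a, Acad12, Echs1 (0.24) and Etfdh (0.22) rose and Crat (-0.40) fell among 21 genes, with a median of 0.07. In 5 of the 21 the diets did not overlap, beside 10.3% of all genes. The rises numbered 2 without chow library 19 and 6 with the length trend removed. Crat and Echs1 were not past the test without any one of 3 libraries and Etfdh without any one of 5. In peroxisomal fatty acid oxidation 6 of 23 genes fell, among them the bifunctional enzyme Ehhadh (-0.68) and the transporter Abcd3 (-0.47), and Acox2 rose by 0.26. Those 6 falls became 3 without high-fat library 10 or 14 or chow library 15, 16 or 18, and 2 without high-fat library 11. Ehhadh was not past the test without any one of 5 libraries and Acox2 without any one of 4.

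Among 35 targets of PPARα 4 rose and 4 fell, 11.4% each way, near the 8.3% higher and 7.32% lower of all genes, with a median of 0.15. Rises were seen in Cpt1a, Fabp2 (0.70), Plin4 (1.12) and Creb3l3 (0.20). Falls were seen in Ehhadh, Acot1 (-0.61), the fatty acid binding protein Fabp1 (-0.39) and Pdk4, which blocks pyruvate dehydrogenase. Pdk4 was at 10.2, 9.34, 3.83, 9.74 and 5.69 CPM on the high-fat diet and at 17.0, 13.8, 17.5, 33.5 and 15.2 CPM on chow, a fall of 1.33 ± 0.34 (adjusted p 0.0204 from edgeR) that was not past the test without high-fat library 14. Fgf21 (0.21, adjusted p 0.867 from edgeR), Angptl4 (0.22, adjusted p 0.652 from edgeR) and Cyp4a14 (-0.02, adjusted p 0.981 from edgeR) did not pass. Falls in PPARalpha targets numbered 7 without high-fat library 12, 2 without high-fat library 10 or 11 or chow library 18, and 1 without high-fat library 14 or chow library 15. Rises numbered 2 without chow library 15, 18 or 19. With the length trend removed, or without high-fat libraries 12 and 14, the falls numbered 2. Fabp1 was not past the test without chow library 15, Acot1 and Creb3l3 without any one of 6 libraries and Plin4 without any one of 7.

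Sugar-handling genes fell at the entry of fructose and galactose and at pyruvate kinase. Pklr, the liver pyruvate kinase and a ChREBP target, was at 159, 131, 184, 113 and 163 CPM against 414, 234, 276, 324 and 228 CPM, a fall of 0.98 ± 0.16 without overlap (adjusted p 0.00113 from edgeR). Khk, which phosphorylates fructose, fell by 0.38, Galt by 0.43 and Galk1 by 0.42, and in all 7 of 26 genes of glycolysis and fructose use fell and Pfkfb2 rose by 0.38. That count was 4 without high-fat library 12 or chow library 15 and 3 without high-fat libraries 12 and 14. The gluconeogenic genes Pck1 (0.86, adjusted p 0.168 from edgeR) and G6pc (0.09, adjusted p 0.799 from edgeR) did not pass. Within gluconeogenesis and glycerol entry 5 of 25 genes rose, namely Gpt, Gpt2, Slc37a4, Slc25a13 and Pcx, by 0.20 to 0.44, and none fell, with 3 rises without high-fat library 11. Galk1 and Slc25a13 were not past the test without any one of 3 libraries, Pcx without high-fat library 11 or 12, and Pfkfb2 without any one of 7. The alanine aminotransferases Gpt and Gpt2 also belong to amino acid breakdown.

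Genes of amino acid breakdown were higher. Of 54 genes 28 rose and none fell, beside 8.3% higher among all genes, with a median of 0.28, and in 28 genes of the list the groups did not overlap, beside 10.3% of all genes. Aass, the first enzyme of lysine breakdown (chr6:23072173-23132986, minus strand), was at 368, 416, 377, 405 and 414 CPM on the high-fat diet and at 255, 267, 264, 248.9 and 207 CPM on chow, a rise of 0.67 ± 0.08 (adjusted p 2.6e-05 from edgeR). The lowest high-fat library of Aass lay well above the highest chow library. Gldc, of the glycine cleavage system, rose by 0.65, Agxt2 by 0.50 and Tdo2, the first enzyme of tryptophan breakdown, by 0.38. Leaving out any one library left 21 to 30 rises, removing the length trend 29, and leaving out high-fat libraries 12 and 14 left 21. On log2(TPM + 1) values only 6 passed.

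Genes of nitrogen disposal rose too. In the urea cycle and nitrogen supply 8 of 16 genes rose and none fell, with a median of 0.30. Cps1, which makes carbamoyl phosphate, was at 5162, 5953, 5467, 5147 and 5148 CPM against 3556, 4104, 3961, 4493 and 2615 CPM, a rise of 0.52 ± 0.14 without overlap (adjusted p 0.0186 from edgeR). Ass1 rose by 0.45, Asl by 0.48, the glutaminase Gls2 by 0.43 and the glutamate transporter Slc1a2 by 0.85. Chow library 19 was the lowest of all 10 libraries for Cps1, Asl and Gls2. The rises numbered 5 without high-fat library 10 or 11 or chow library 19, and Ass1 was not past the test without any one of 6 libraries.

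Large changes were seen in methionine and sulfur handling. Csad, which decarboxylates cysteine sulfinate on the way to taurine (chr15:102176999-102204724, minus strand), was at 62.9, 66.8, 89.4, 88.6 and 101 CPM on the high-fat diet and at 566, 420, 426, 432 and 594 CPM on chow. It fell by 2.58 ± 0.16 without overlap (adjusted p 6.09e-07 from edgeR). Nnmt, which uses the methyl donor S-adenosylmethionine to methylate nicotinamide (chr9:48591877-48605153, minus strand), was at 111, 96.7, 103, 82.0 and 87.8 CPM against 24.7, 30.4, 27.0, 36.0 and 18.8 CPM, a rise of 1.81 ± 0.16 (adjusted p 1.69e-05 from edgeR).

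Bhmt, which remakes methionine from homocysteine with betaine, was at 5969, 6029, 6147, 5368 and 5514 CPM on the high-fat diet against 2056, 2487, 2953, 3844 and 1742 CPM on chow, a rise of 1.15 ± 0.20 (adjusted p 0.0016 from edgeR). The high-fat values were close together and the chow values spread out, without overlap. Mat1a, which makes S-adenosylmethionine, rose by 0.57, Ahcy, which clears its demethylated product, by 0.60, and the enzymes that take the methyl groups of betaine's products onward, Dmgdh and Sardh, each by 0.52. Ethe1, of sulfide oxidation, fell by 0.72 and the taurine transporter Slc6a6 by 0.39. In all 7 of 31 genes of methionine, one-carbon and sulfur metabolism rose and 3 fell, with 5 falls without high-fat library 9 or chow library 19. Of all genes 8.3% were higher and 7.32% lower.

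Many antioxidant genes under NRF2 fell. Of 38 tested, 17 fell and none rose, with a median of -0.40. Gclc, the catalytic subunit of the enzyme that limits glutathione synthesis (chr9:77754535-77794485, plus strand), was at 299, 306, 265, 355 and 271 CPM on the high-fat diet and at 511, 475, 536, 505 and 511 CPM on chow. It fell by 0.76 ± 0.08 without overlap (adjusted p 1.69e-05 from edgeR). Its partner Gclm fell by 0.39, glutathione reductase Gsr by 0.40, Srxn1, which repairs peroxiredoxins, by 0.53, thioredoxin Txn1 by 0.41 and Prdx1 by 0.27. Gstm4, a glutathione transferase, was at 19.6, 17.9, 14.4, 17.7 and 16.9 CPM against 56.9, 37.98, 36.0, 48.2 and 42.4 CPM, a fall of 1.36 ± 0.11 (adjusted p 1.25e-06 from edgeR). Ephx1, an epoxide hydrolase, fell by 1.03 and the exporter Abcc4 by 1.30. The count was 16 to 20 when any one library was left out, 17 with the length trend removed and 15 without high-fat libraries 12 and 14. Prdx1 was not past the test without any one of 6 libraries.

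Some genes of foreign-compound metabolism fell. Among conjugation enzymes 14 of 54 fell and 4 rose, among cytochromes P450 and their reductase 12 of 49 fell and 5 rose, and among targets of the receptors CAR and PXR 8 of 34 fell and 3 rose. The shares that rose, 7.41%, 10.2% and 8.82%, lay near the 8.3% of all genes, and the shares that fell were 25.9%, 24.5% and 23.5% beside 7.32%. The lists share members with the NRF2 targets. Members of the Gstm, Cyp2c, Cyp3a and Ugt1a families have near-identical copies between which reads can be split, so single members are uncertain. Gstm3 was at 9.61, 8.11, 7.94, 6.70 and 6.39 CPM on the high-fat diet and at 58.9, 43.4, 30.5, 42.8 and 38.5 CPM on chow, a fall of 2.46 ± 0.33 (adjusted p 0.00053 from edgeR). Ugt1a9, a glucuronosyltransferase, was at 27.7, 37.6, 28.4, 33.8 and 26.2 CPM against 150, 107, 124, 115 and 96.6 CPM, a fall of 1.95 ± 0.19 (adjusted p 3.54e-05 from edgeR). Neither gene showed overlap, which the rule that named them required.

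Cyp3a11, the main inducible drug-metabolising P450 of mouse liver, was at 576, 636, 451, 920 and 533 CPM on the high-fat diet and at 4591, 3322, 3264, 3347 and 2482 CPM on chow. The groups lay far apart, but the shared estimate of spread was wide and the fall of 2.45 ± 0.61 had an adjusted p of 0.0187 from edgeR, which was not past the test without high-fat libraries 12 and 14. The ketogenic libraries, which share that estimate, held 1 library at 12300 CPM beside a median of 2076 CPM for that diet. Cyp1a1 fell by 1.94, Cyp1a2 by 0.67, Cyp2c55 by 3.00, Cyp2c40 by 2.16 and Cyp2c69 by 2.40. Rises were seen in Cyp2e1 (0.41), Cyp3a13 (0.40), the reductase Por (0.46) and Cyp26b1, which clears retinoic acid (2.21), as well as in the sulfotransferases Sult1d1 (1.18) and Sult1b1 (0.71). Por, at an adjusted p of 0.0488 from edgeR, was not past the test in 17 of 21 alternatives, Cyp26b1 without high-fat library 12 or chow library 15, and Cyp2c55 without any one of 5 libraries. Falls among CAR and PXR targets numbered 5 without any one of high-fat libraries 10, 11, 12 and 14 or chow library 15, and 3 without high-fat libraries 12 and 14. Without those libraries 5 genes of cytochrome P450 and reductase fell, and its rises numbered 3 without high-fat library 12 or chow library 15.

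Genes of the acute phase protein list rose in part. The list holds albumin and transthyretin as well as serum amyloids, and was not split by the direction of each gene in inflammation. Of 44 tested 10 rose, 22.7% beside 8.3% of all genes, and 3 fell, 6.82% beside 7.32%, with a median of 0.19. Saa4 (chr7:46727998-46732603, minus strand) was at 621, 708, 582, 436 and 475 CPM on the high-fat diet and at 232, 233, 264, 209 and 208 CPM on chow, a rise of 1.30 ± 0.14 without overlap (adjusted p 3.54e-05 from edgeR). Its relative Saa1 was at 162, 86.3, 38.8, 40.9 and 65.9 CPM against 12.7, 12.99, 14.0, 18.8 and 15.2 CPM, a rise of 2.42 ± 0.64 (adjusted p 0.0249 from edgeR). The high-fat values were all above chow and far from each other, and the rise was not past the test without chow library 15 or 16. Serpina3n rose by 0.73, Steap4 by 0.71, haptoglobin Hp by 0.34 and Orm3 by 1.85, while Lcn2 (1.99, adjusted p 0.0686 from edgeR) did not pass. Lcn2 did pass when only the 10 high-fat and chow libraries were fitted, and in DESeq2.

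The falls among acute phase proteins were in transthyretin Ttr (-0.36), albumin Alb (-0.26) and Apcs (-0.53), and 1 fall passed without any one of high-fat libraries 11, 12 and 14 or chow libraries 15, 17 and 18. None passed without high-fat libraries 12 and 14. Alb was not past the test without any one of 7 libraries and Apcs without any one of 8. Of 51 genes of complement and coagulation 7 rose, among them C4b (0.47) and C9 (0.49), and none fell, beside 8.3% higher and 7.32% lower of all genes. Chemokines, cytokines and NF-kappaB genes showed 1 rise, in Nlrp6 (0.27), and 3 falls among 41, 7.32% as over all genes, in Ccl9 (-0.98), Nlrp3 (-0.89) and Birc3 (-0.28). These falls numbered 5 without high-fat library 9 and 1 without high-fat library 11 or 12 or chow library 15, and 1 without high-fat libraries 12 and 14. Nlrp3 and Birc3 were not past the test without any one of 4 libraries and Nlrp6 without any one of 5. Ccl2 (-0.51, adjusted p 0.506 from edgeR) did not pass.

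Some interferon-stimulated genes were lower. Of 59 tested 14 fell and none rose, beside 7.32% lower and 8.3% higher among all genes, with a median of -0.20. Bst2, which tethers budding virus, was at 46.9, 44.6, 44.3, 36.1 and 38.6 CPM against 74.8, 62.3, 66.1, 67.4 and 68.5 CPM on chow, a fall of 0.69 ± 0.11 without overlap (adjusted p 0.00041 from edgeR). Isg15 fell by 0.80, Gbp6 by 0.78 and Ifi27l2a by 1.20, and the levels of Isg15 and Ifi27l2a were under 5 CPM in every high-fat and chow library. The falls among interferon-stimulated genes numbered 7 without high-fat library 10, 8 without high-fat library 12, and 9 without high-fat library 11, chow library 15 or chow library 18. They numbered 9 with the length trend removed and 8 without high-fat libraries 12 and 14.

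Other cell types of liver showed few changes in their markers, set beside 8.3% higher and 7.32% lower among all genes. In bulk tissue, fewer cells of a type and less RNA per cell cannot be told apart. Of 22 Kupffer cell and macrophage markers 1 fell, Cd9 (-1.20), and the summed level of all 23 listed was 295 to 467 CPM on the high-fat diet and 356 to 465 CPM on chow, with the macrophage marker Adgre1 not past the test (-0.21, adjusted p 0.423 from edgeR). Without high-fat library 14, 4 of these markers fell, and without libraries 12 and 14, 2. Of 10 B and plasma cell markers Ighm (-1.36) and Ighd (-1.15) fell, and the sum of all 15 listed was 6.87 to 11.8 CPM against 8.23 to 20.2 CPM. Liver endothelium showed 1 rise, Stab1 (0.35), among 21, or 1 fall and no rise without high-fat libraries 12 and 14, and stellate cells 1 fall, Ngfr (-0.57), among 18, with the collagen gene Col1a1 not past the test (-0.30, adjusted p 0.515 from edgeR). No T and NK cell marker of 10 and no neutrophil marker of 4 passed, and the sum of all 12 neutrophil markers listed was 3.23 to 7.74 CPM against 2.63 to 3.73 CPM, a list that holds Lcn2 and has 1 marker at 0 in every library. Ighm was not past the test without any one of 4 libraries, Stab1 without high-fat library 14 or chow library 15, and Ngfr without high-fat library 10 or chow library 16. The part of these markers in the immune and acute phase results was not tested. Of 11 erythroid and platelet markers 0 passed with all libraries (median -0.37), and 5 were lower without high-fat library 11.

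Some markers of neighbouring tissues were concentrated in single libraries. Others, among them Fabp4, Car3, Pck1, Mylpf, Cela1, Lgals4 and Fabp2, had reads in all 10 libraries. So did Cfd, Cidec, Plin1, Aqp7, Cela2a and Vil1, some of them with few reads in a library. Of the skeletal muscle markers, Myh4 had 79.3 of its 82.3 chow reads in chow library 16, Acta1 65 of 70, Tnnt3 57 of 61 and Ckm 45.1 of 54.3. The fat marker Adipoq had 97 reads in the chow libraries, 61 of them in chow library 17, and 4 in the high-fat libraries, and Plin1 had 43.1 and 13. Within the adipocyte list, Cfd and Cidec were highest in high-fat library 11, with 205 of 277 high-fat reads of Cfd and 246 of 615 of Cidec. Lep, Retn, Fabp4 and Aqp7 had most reads in chow library 17, as Adipoq and Plin1 did. Fabp4 had 459 reads there and 236.8 in high-fat library 11. The pancreas enzyme Ctrb1 had 46 of its 49 high-fat reads in high-fat library 10 and Pnlip 31 of 40. The sum of 15 pancreas and gut markers, which include the risen Fabp2, was 102 to 144.5 CPM on the high-fat diet and 79.1 to 85.6 CPM on chow. The part of these tissues in the lipid, PPARα and other results was not tested.

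Zonal markers of hepatocytes moved at both ends of the lobule. Of 24 pericentral markers 6 rose, among them Cyp2e1, Slc1a2 and Rnase4 (0.56), and Cyp1a2 fell. Of 21 periportal markers 6 rose and 3 fell, including Hsd17b6 (-1.36) and albumin. Over all genes 8.3% were higher and 7.32% lower. The periportal rises numbered 3 without high-fat library 10 or 11 or chow library 15 or 19 and 2 without high-fat libraries 12 and 14. The falls numbered 1 without high-fat library 12 or 14 or chow library 15 or 17, and none passed without libraries 12 and 14.

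Genes of the protein-making and protein-degrading machinery fell by small amounts. Of 81 cytosolic ribosomal proteins 63 fell and none rose, with a median of -0.31, and in 24 the groups did not overlap, beside 10.3% of all genes. Rps26 was at 69.3, 68.6, 63.7, 58.4 and 55.8 CPM on the high-fat diet and at 95.8, 86.7, 84.4, 77.7 and 90.0 CPM on chow, a fall of 0.46 ± 0.07 (adjusted p 0.000274 from edgeR). Libraries 12 and 14 held its lowest values. These are short genes, with a median length of 647 bases beside 2797 over all genes, and the length trend over all genes runs the same way. With the trend removed 48 fell, with a median of -0.17, and without high-fat libraries 12 and 14 the falls among cytosolic ribosomal proteins numbered 21, with a median of -0.21.

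**Figure D4:**
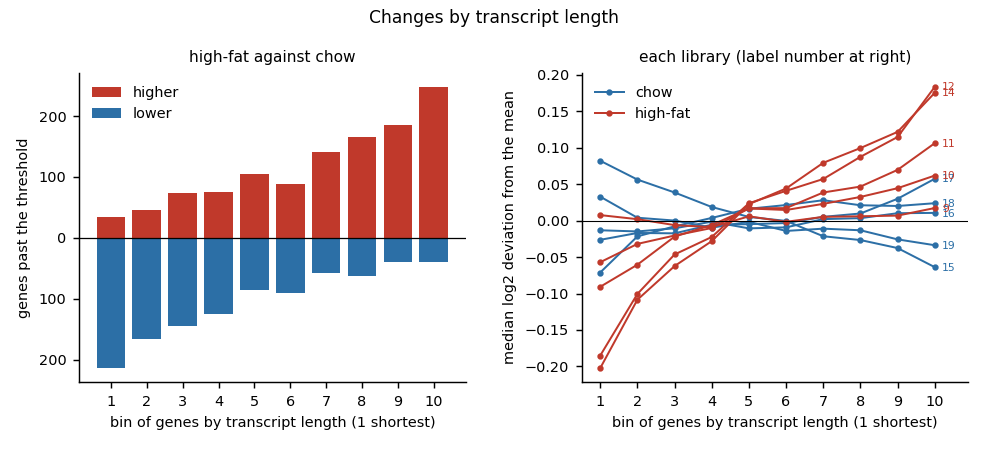
Number of genes past the threshold, higher upward and lower downward, in 10 equal bins of genes by transcript length (left), and the median log2 deviation of each high-fat and chow library from the mean of the chow libraries in the same bins (right). The shortest bin holds 34 higher and 214 lower genes and the longest 248 and 40, and the gap from the first bin to the last is widest in high-fat libraries 12 and 14, at 0.37 and 0.38.

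Of 35 genes of the proteasome list, 21 fell and 1 rose, with a median of -0.24. Psma5, a subunit of the core, was at 45.5, 39.8, 40.2, 42.8 and 36.9 CPM against 57.8, 49.5, 53.8, 54.9 and 56.0 CPM, a fall of 0.41 ± 0.06 without overlap (adjusted p 0.000298 from edgeR). The proteasome list held 16 falls with the length trend removed and 11 without high-fat libraries 12 and 14. Its median length was 1354 bases. The 1 member that rose was Nfe2l1, by 0.28, which encodes a transcription factor of proteasome genes and not a subunit. It was picked after its value was seen. In contrast, 5 of 24 genes of the heat shock chaperone list rose, with Hspa8 up by 0.79, Hsph1 by 0.75 and Dnaja1 by 0.47. Its mitochondrial member Hspe1 fell by 0.32. Without high-fat libraries 12 and 14, 3 of the heat shock genes rose. In the integrated stress response list 6 of 25 genes fell and none rose, among them Atf5 (-0.45) and the serine synthesis enzyme Psat1 (-1.19). In the unfolded protein response the ubiquitin ligase Syvn1 (0.57) and Atf6 (0.28) were among 5 rises of 30 and the lectin chaperone Calr (-0.47) among 3 falls, which numbered 11 without high-fat library 9, 5 without chow library 16 and 1 without high-fat libraries 12 and 14. Beside the heat shock, integrated stress response and unfolded protein response counts stand 8.3% higher and 7.32% lower of all genes. Psat1 was not past the test without any one of 8 libraries and Hspe1 without any one of 3.

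Among endocrine targets, Fkbp5, a chaperone regulator induced by glucocorticoids, was at 47.2, 57.5, 81.0, 78.7 and 87.9 CPM on the high-fat diet and at 24.4, 29.3, 24.3, 28.0 and 27.9 CPM on chow. It rose by 1.40 ± 0.24 without overlap (adjusted p 0.0021 from edgeR). The list of 24 glucocorticoid targets as a whole held 3 rises and 2 falls, 12.5% and 8.33%, near the shares of all genes, with 1 rise without any one of high-fat libraries 10, 12 and 14 or chow libraries 15 and 16. Without high-fat libraries 12 and 14 it held 1 rise and no fall. Igf1 (-0.04, adjusted p 0.842 from edgeR), Igfbp1 (-1.35, adjusted p 0.211 from edgeR) and Irs2 (-0.13, adjusted p 0.747 from edgeR) did not pass. Hamp, which encodes the iron hormone hepcidin (-0.59, adjusted p 0.204 from edgeR), and the zinc-binding Mt2 (1.84, adjusted p 0.296 from edgeR) did not pass either. Mt2 passed when only the 10 high-fat and chow libraries were fitted, at an adjusted p of 0.0123 from edgeR, with 0.370 to 1.36 CPM on the high-fat diet and 0.144 to 0.295 CPM on chow. Fgf1 rose by 0.20 and was not past the test without any one of 5 libraries.

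Large changes outside these groups were rises of Scara5, a ferritin receptor (2.26), Mfsd2a, a transporter of lysophosphatidylcholine (1.57), Eif4ebp3, a repressor of translation initiation (1.27), and the receptor kinase Epha2 (1.22), along with Cabyr (1.73), Omd (1.49) and Aatk (1.22). Large falls were seen in Chrna4, a nicotinic receptor subunit (-3.46), Fam198a (-2.17) and Col15a1, a basement membrane collagen (-1.87). Mfsd2a was not past the test without any one of 5 libraries. Chrna4 was at 6.14, 2.49, 1.48, 1.28 and 0.605 CPM against 30.3, 19.9, 20.1, 53.8 and 7.98 CPM, without overlap and with a wide spread within both diets.

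Several circadian genes were higher on the high-fat diet. Of 27 circadian genes 9 rose and none fell, with a median of 0.18. Per2, a repressor of the clock loop, was at 41.02, 65.5, 46.8, 45.8 and 34.1 CPM on the high-fat diet and at 26.4, 29.5, 24.3, 25.8 and 26.1 CPM on chow, a rise of 0.82 ± 0.15 without overlap (adjusted p 0.0027 from edgeR). Per3 rose by 0.54, Cry2 by 0.31, Nr1d2, another repressor, by 0.72, Ciart by 1.52 and Bhlhe41 by 0.69, and the activators Tef and Hlf, which bind the D-box, by 0.53 and 0.33. Arntl (-0.09, adjusted p 0.517 from edgeR) and Dbp (0.54, adjusted p 0.0817 from edgeR) did not pass. Dbp did pass in 4 of 21 alternatives: without high-fat library 14, chow library 15 or high-fat libraries 12 and 14, and with the length trend removed. The sources used here do not give the time of day at which livers were taken, so its part was not tested. With the length trend removed 5 of the circadian clock genes rose. Per3 was not past the test without any one of 8 libraries, Bhlhe41 without any one of 7 and Cry2 without any one of 4, whereas Per2, Nr1d2 and Tef passed in all 21 alternatives run.

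The total of Clock itself did not pass (0.09, adjusted p 0.392 from edgeR), at 66.6, 65.5, 67.3, 70.6 and 77.3 CPM on the high-fat diet and at 59.97, 60.5, 72.0, 63.7 and 70.3 CPM on chow, but the make-up of its transcripts differed. Transcript shares were each transcript's percent of the estimated counts of its gene's kept transcripts, those past the filters for this test. They were tested in 6717 genes, of which 102, 1.52%, passed edgeR's test of share differences. Clock-201 held 18.7, 19.8, 29.0, 14.9 and 17.6% of the kept counts of Clock on the high-fat diet and 0, 1.63, 2.64, 0 and 3.99% on chow. In chow libraries 15 and 18, where it was listed at 0, a floor of 3 reads allows a share of up to 0.148% and 0.139%, for counting error only. The groups did not overlap, the difference was 18.4 points (adjusted p 0.00157 from edgeR), and the call held in 16 of 16 alternatives. The limma test of shares also called it, at an adjusted p of 0.00275. On the ketogenic diet Clock-201 held 28.1% ± 2.35 (SD, n = 5), a share that was not tested against the other diets.

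Clock lies on the minus strand (chr5:76209868-76304792, GRCm38). Clock-201 and Clock-205 have 23 exons each in GENCODE M21, of which 21 have the same start and end, and all 20 coding blocks are shared, so the annotated protein is the same. They differ in the first exon, chr5:76304368-76304548 in Clock-201 and chr5:76304655-76304792 in Clock-205, and in the last exon, which begins with the same base and is 4702 bases long in Clock-201 and 7011 bases in Clock-205. The 5′ ends lie 244 bases apart. The stretches just upstream of each first exon are shown because they are where the annotated starts of these transcripts diverge, from RefSeq promoter windows of GRCm38.p6, read 5′ to 3′ on the minus strand, with no capitals because no searched motif was found. The first is chr5:76304793-76304875 before Clock-205 and the second chr5:76304549-76304654 before Clock-201.
Clock-205: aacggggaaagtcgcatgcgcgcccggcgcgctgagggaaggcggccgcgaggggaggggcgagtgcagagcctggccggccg
Clock-201: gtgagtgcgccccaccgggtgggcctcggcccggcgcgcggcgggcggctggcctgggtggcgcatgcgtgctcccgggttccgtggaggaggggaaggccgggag
Neither stretch holds the E-box letters CACGTG or the D-box letters TTANGTAA. The deposited tables give no measure of how certainly reads were assigned between the transcripts, and that uncertainty is not in the p-value.

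**Figure D5:**
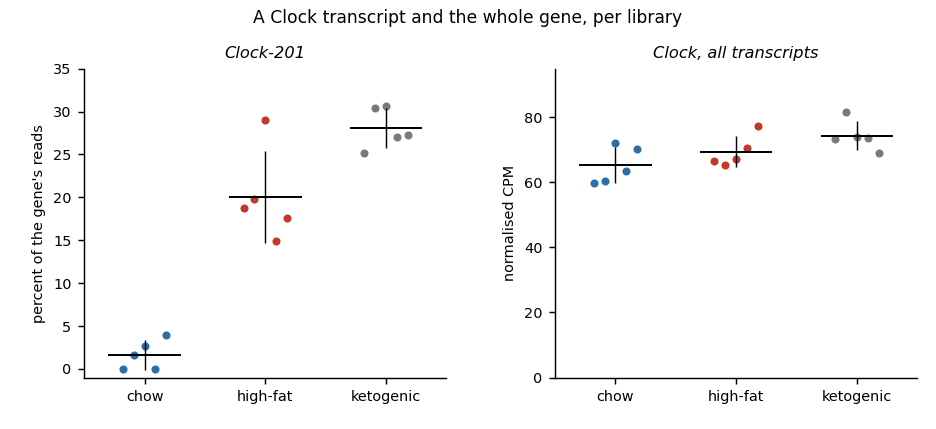
Percent of the reads of the kept Clock transcripts given to Clock-201 in each library of the 3 diets, beside the normalised CPM of the whole gene, with the mean and SD of 5 libraries. The 5 high-fat libraries sit between 14.9 and 29.0% and the 5 chow libraries between 0 and 3.99%, while the gene's total overlaps.

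Other share changes were mostly modest. The median largest change among the 102 called genes was 8.32 points, beside 3.89 points over all genes tested, and 43 genes changed by at least 10 points. In 60 of the 102 a transcript did not overlap between diets, beside 352 of 6717, 5.24%, over all. Of the genes called for share, 29 were also called for total level, 15 higher and 14 lower. Tubgcp5-201, from a gene of the microtubule-nucleating complex, held 0, 3.03, 3.80, 0 and 8.51% on the high-fat diet and 53.2, 32.3, 39.6, 40.8 and 27.6% on chow, a difference of -35.6 points (adjusted p 0.0309 from edgeR). Where it was listed at 0, in high-fat libraries 9 and 12, a floor of 3 reads allows up to 1.87% and 1.62%. Ccnt2-201, from a cyclin of the elongation factor P-TEFb, held 29.7, 45.0, 29.9, 33.4 and 33.8% against 53.4, 54.3, 45.5, 65.7 and 50.5%, a difference of -19.5 points (adjusted p 0.00157 from edgeR). Atp13a3-201, from a gene of a polyamine transporter, held 82.6, 74.9, 94.4, 82.2 and 83.9% against 64.6, 74.1, 72.0, 62.4 and 65.6%, a difference of 15.8 points (adjusted p 0.0133 from edgeR). Share calls were lost in 4 of 15 alternatives for Tubgcp5, among them leaving out high-fat library 10 or 11 or chow library 15, in 3 of 16 for Atp13a3, including the absence of high-fat libraries 12 and 14, and in 1 of 16 for Ccnt2. All of these genes were also called by limma, which called 92 genes in all, 57 of them among the 102. Large share changes that limma did not call were in Ubap2, Cuedc2, Dis3l2, Mga and Cep135. In Ubap2, Ubap2-202 held 0.01 to 4.43% on the high-fat diet and 86.3 to 98.8% in 4 chow libraries, but 5.47% in chow library 17. Calls fell to 55 without high-fat library 11 and to 65 without high-fat library 12, and a Simes test over transcripts called 11.

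Promoters of the members that moved were searched on both strands over 250 bases before the RefSeq start, in 10466 of the 13967 tested genes. CCAAT, the letters of the NF-Y element that accompanies SREBP sites, was found in 9 of 13 promoters of fallen genes in the fatty acid synthesis list and in 3 of 4 of fallen cholesterol genes, beside 40.4% of all promoters and 11 of 11 of the cholesterol genes that did not pass. The sterol element TCACNCCAC of SREBP itself was in 0 of these 13 and 0 of these 4 promoters, in 1 of the 11 and in 1.24% of all. A PPAR direct repeat, the letters AGGNCA and AGGTCA with 1 base between them, was in 0 of 4 promoters of risen PPARα targets, 1 of 4 of fallen ones, that of Fabp1, and 0.124% of all. The heat shock element, GAA, TTC and GAA with 2 bases between each, was in 0 of 4 promoters of risen chaperones, in that of the fallen Hspe1, in 1 of 13 of those that did not pass and in 0.459% of all. The E-box CACGTG was in 3 of 8 promoters of risen clock genes, Bhlhe41, Ciart and Tef, and in 2 of 13 of the clock genes that did not pass, beside 9.42% of all. The D-box TTANGTAA was in 1.84% of all and, among the risen clock genes, in Per3, with 0 of 13 among those that did not pass. TGACNNNGC, letters of the antioxidant element chosen after the results were seen, was in 4 of 14 promoters of fallen NRF2 targets, 4 of 19 of those that did not pass and 13.4% of all. Fasn, Tef and Per3 are shown as members that carry these letters, in capitals on either strand, from RefSeq on GRCm38.p6. They are chr11:120824548-120824797 on the minus strand, chr15:81811164-81811413 on the plus strand and chr4:151044666-151044915 on the minus strand.
Fasn, CCAAT: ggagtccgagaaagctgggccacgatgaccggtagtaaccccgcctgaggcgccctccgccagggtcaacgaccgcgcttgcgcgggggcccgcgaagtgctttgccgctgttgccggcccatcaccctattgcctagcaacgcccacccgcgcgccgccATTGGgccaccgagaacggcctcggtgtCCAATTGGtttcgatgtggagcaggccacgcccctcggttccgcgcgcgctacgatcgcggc
Tef, E-box: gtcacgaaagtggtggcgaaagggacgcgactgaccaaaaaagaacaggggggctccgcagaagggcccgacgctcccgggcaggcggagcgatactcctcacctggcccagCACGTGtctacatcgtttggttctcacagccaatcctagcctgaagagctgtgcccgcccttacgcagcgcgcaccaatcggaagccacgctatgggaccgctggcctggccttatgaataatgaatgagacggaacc
Per3, D-box: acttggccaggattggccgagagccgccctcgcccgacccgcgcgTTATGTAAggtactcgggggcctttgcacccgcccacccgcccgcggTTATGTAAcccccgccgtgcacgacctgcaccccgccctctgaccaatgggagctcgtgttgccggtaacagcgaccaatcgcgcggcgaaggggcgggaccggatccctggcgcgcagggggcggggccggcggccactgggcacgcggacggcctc
The Fasn promoter holds 3 matches to CCAAT, which begin 90, 62 and 59 bases before the start. Those at 62 and 59 overlap, on opposite strands of the same stretch. Tef holds 1 E-box, 138 bases before the start, and Per3 holds 2 copies of the D-box, at 205 and 158 bases.

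Gene levels on the high-fat diet were tested against the ketogenic diet only through the direct contrast of those diets, because both share the chow libraries. Of 13967 genes 3644, 26.1%, differed between the ketogenic and high-fat libraries. All 21 genes of mitochondrial fatty acid oxidation were higher on the ketogenic than on the high-fat diet, with a median difference of 0.68, as were 31 of 35 PPARα targets, with a median of 1.12. The next genes were named for their high-fat values and are compared with the same high-fat libraries, so their differences are a description. Cpt1a was 0.99 higher on the ketogenic diet on the log2 scale, Nnmt 1.09 lower, Ugt1a9 2.14 higher, Scd1 5.13 lower and Pnpla3 2.17 lower.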

How the data were processed

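Liver RNA was sequenced in 15 libraries, 5 for each of 3 diets. Per the submitters' processing notes, reads were trimmed with Trimmomatic 0.36 and quantified with kallisto 0.44, edgeR 3.28 was used, and the build was GRCm38.p6. The deposited tables give the authors' estimated counts and TPM per transcript, with the effective length on which TPM rests. Among transcripts with at least 10 reads, that length exceeded the transcript's own in 46.9 to 72.6% on the high-fat diet. On chow it did so in 52.7 to 71.35%. Estimated counts were therefore the main unit, and results on TPM or with the offset for effective length rest on those lengths. Here 105734 of 106332 transcripts were matched to GENCODE M21, and the rest, 0.184 to 0.223% of reads, were left out. Estimated counts were summed to 25731 genes and rounded. Genes were kept by filterByExpr (minimum count 10, total 15), scaled by TMM and tested with edgeR 4.0.16's quasi-likelihood test (R 4.3.3) over all 15 libraries with diet as the term and Benjamini-Hochberg adjustment. The design's residual degrees of freedom pool the spread of all 3 diets.

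Within-gene transcript shares used edgeR's diffSpliceDGE on genes with at least 50 reads and at least 2 kept transcripts. Kept transcripts had at least 10 reads in at least 5 libraries and a 5% mean share on the high-fat diet or chow. A transcript could thus enter through 1 diet alone. Shares are percents of the reads of a gene's kept transcripts. Named transcripts came from the 10 called genes with the largest share changes in a transcript that did not overlap between diets, predicted genes left out. On simulated data this test made more false calls than its threshold allows and limma's came near it, so limma 3.58.1 calls are given beside it. DESeq2 1.42.0, limma-voom, limma on log2(TPM + 1) and other scalings and filters were alternatives. Single read shares used the exact permutation test over 252 regroupings. Chi-square per degree of freedom between same-diet libraries was 18.5 to 114 over 20 pairs, so none was a duplicate. Estimated counts can be split among gene family members and are not independent molecules.

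One rule for named genes took the 12 largest rises and falls at an adjusted p under 0.05 whose diets did not overlap and whose mean reached 5 CPM on the diet with more. Another took, from each list, at most the 4 members with the lowest adjusted p, and a fixed panel of 39 completed the set. Predicted genes, pseudogenes and mitochondrially encoded genes were left out of the rises and falls. Some genes these rules chose are not reported here. Other members named were chosen after their values were seen. The members and lists were chosen with earlier results of these data known.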

Additional observations from a re-analysis of the deposited data

Results flagged for a closer look

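In 23 of 360 sets of 5 libraries, 6.39%, the highest or lowest value of a named gene stood apart from the other 4, and chance alone flags about 1 in 20. Chow library 19 was the one set apart in 9 of them, as the lowest chow value each time: Acad12 at 4.84 CPM, albumin Alb at 55150, Asl at 284, Creb3l3 at 177, Gls2 at 177, Mat1a at 1147, Pcx at 222, Sardh at 338 and Slc25a13 at 178 CPM. Most of these are genes of amino acid, nitrogen or methyl-group metabolism that rose on the high-fat diet.

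Among the other chow libraries, library 15 was set apart as the highest for Apoa4, at 215 CPM, and Ttr, at 4793 CPM. Library 17 was highest for Cyp3a13, at 204 CPM, and library 18 for Col1a1, at 4.66 CPM, and Pdk4, at 33.5 CPM.

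Of the high-fat libraries, library 14 was set apart for Cabyr, at 16.9 CPM, Hamp, at 655 CPM, and Ighd, at 0.696 CPM, as the highest, and for Fabp1, at 2106 CPM, as the lowest. Library 12 was highest for Acot1, at 52.9 CPM. Library 9 was highest for Cyp2c55, at 1.42 CPM, and Plin2, at 398 CPM. Library 10 was highest for Fam198a, at 2.49 CPM, and library 11 for Scara5, at 31.6 CPM.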

How the results depend on the processing

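Of the summary values recomputed under other settings, 120 kept their direction and their side of the threshold, or for counts stayed within 1.5 times, 12 counts moved further, 1 value lost its call and 1 changed sign. The count of higher genes was 741 with an offset for effective length, 119 with limma on log2(TPM + 1) and 549 without high-fat libraries 12 and 14, and the count of lower genes was 351 and 510 in the last pair. Leaving out 1 library at a time gave 681 to 1313 lower genes. Genes with changed transcript shares numbered 11 by the Simes test, 52 at a mean share of at least 10%, 27 with only the 10 high-fat and chow libraries, 66 without high-fat libraries 12 and 14, and 55 to 106 with 1 library left out. The difference in albumin's share of reads was -0.837 points on TPM, no longer past the exact test, and that of mitochondrially encoded genes ran from -0.344 to 0.105 points with 1 library left out. That of major urinary protein genes, which did not pass the exact permutation test, was 0.980 points and ran from 0.160 to 2.05. The cause of these shifts was not tested, beyond the smaller number of libraries or transcripts tested where libraries or transcripts were left out.

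Of 151 named genes past the test, 46 were not past it without at least 1 library, 25 of them without any one of 5 or more. Some genes that did not pass with all libraries changed sign. With 1 library left out, Cd36 ran from -0.17 to 0.18, Cyp4a14 from -0.29 to 0.16, Fgf21 from -0.28 to 0.49, G6pc from -0.042 to 0.23, Igf1 from -0.094 to 0.0098 and Col1a1 from -0.48 to 0.019. Cd36 was -0.0015 with DESeq2's size factors, -0.0059 with the length trend removed and -0.39 without high-fat libraries 12 and 14, where Fgf21 was -0.69. Cyp4a14 was 0.035 with total-count scaling, Clock -0.062 with the length trend removed, and Igf1 0.074 with the length offset and 0.078 on log2(TPM + 1). The settings for the length trend and for high-fat libraries 12 and 14 were chosen after seeing the data. No paired analysis was possible because no label number occurs in 2 diets. Low genes are limited by depth, and on log2(TPM + 1) their changes are understated.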

Other observations

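Among list members below the level needed for the test, Cidea, a lipid droplet gene, had 65 of its 69 high-fat reads in high-fat library 11, and Moxd1 had 53 of 72 in the same library. Car9 had 41 of 56 in high-fat library 10. These were picked after their values were seen, and the like concentration of some muscle, fat and pancreas markers in chow libraries 16 and 17 and high-fat library 10 is given with the marker lists.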
